A study of Mus musculus with 6 samples.

Results

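BiP, encoded by Hspa5, is the Hsp70 chaperone of the endoplasmic reticulum (ER), and it works with J-domain partners and nucleotide exchange factors that reside in the same compartment. Described here are 10 mouse genes of this system, out of 55487 genes in the deposited count table, in MIN6 cells transfected with PTHrP or with a DsRed vector. They were chosen by name and role, as 2 luminal Hsp70 proteins (Hspa5, Hspa13), 6 J-domain proteins (Dnajb9, Dnajb11, Dnajc3, Dnajc10, Dnajc1, Sec63) and 2 nucleotide exchange factors (Hyou1, Sil1). The choice was made with results of the PTHrP and DsRed comparison known, so the values of that comparison are given as a description and not as independent evidence. All 10 had enough counts to enter the fit over 21141 genes.

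MIN6 is an established mouse beta cell line that secretes insulin. Confluent cells were transfected by Lipofectamine with full-length parathyroid hormone-related protein (PTHrP, gene Pthlh) or with the DsRed control vector, and RNA was collected at most 3 days later. There were 3 libraries per group, and the study's title asks about ER stress. Expression was transient and the share of cells transfected is not given in the labels, so each value is an average over transfected and untransfected cells, and fewer cells with a transcript and less RNA per cell cannot be told apart. No untransfected library was analysed here.

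An Hsp70 protein grips unfolded chains when it holds ADP and lets go when it binds ATP. J-domain proteins bring it clients and trigger hydrolysis of its ATP, and exchange factors remove the ADP so that the cycle can start again. In a beta cell, which makes large amounts of proinsulin, this cycle folds newly made protein, helps pull it through the translocation channel and hands misfolded chains to degradation. BiP also binds the luminal parts of the stress sensors IRE1, PERK and ATF6, and transcription of its gene is a classical readout of the unfolded protein response (UPR).

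The promoter of Hspa5 carries ER stress elements (ERSE) that join a CCAAT box and a CCACG box, the sites for NF-Y and for ATF6 or XBP1. The bases before the start of 3 members are shown, 2 that hold a match to this element and Dnajb9, which holds none and had about the same fold change as Hspa5 (values follow). They are the RefSeq sequences of build GRCm38.p6, written 5′ to 3′ along the gene, with capitals for a match to the ERSE (CCAAT, any 9 bases, CCACG) or to the core of the UPR element (UPRE, TGACGTG). The Hspa5 stretch is chr2:34771840-34772089 on the plus strand, that of Dnajc3 is chr14:118937682-118937931 on the plus strand, and that of Dnajb9 is chr12:44210069-44210318 on the minus strand. The 250 bases of each run up to the base before the annotated RefSeq start. By the GENCODE bounds the Dnajb9 stretch lies wholly inside the gene (44205559 to 44210326), so no bases before its GENCODE start were searched. The Hspa5 stretch lies partly inside its gene, whose GENCODE start is 34771970.
Hspa5: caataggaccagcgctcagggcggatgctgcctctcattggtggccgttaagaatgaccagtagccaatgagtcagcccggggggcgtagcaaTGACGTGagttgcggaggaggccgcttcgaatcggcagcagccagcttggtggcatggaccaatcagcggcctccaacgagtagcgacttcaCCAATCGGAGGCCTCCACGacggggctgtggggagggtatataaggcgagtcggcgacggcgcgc
Dnajc3: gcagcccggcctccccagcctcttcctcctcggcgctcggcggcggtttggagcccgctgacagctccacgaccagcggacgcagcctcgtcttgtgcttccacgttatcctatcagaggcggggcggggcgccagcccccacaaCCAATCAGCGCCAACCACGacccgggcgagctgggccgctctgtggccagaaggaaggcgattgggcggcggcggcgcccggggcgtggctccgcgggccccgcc
Dnajb9: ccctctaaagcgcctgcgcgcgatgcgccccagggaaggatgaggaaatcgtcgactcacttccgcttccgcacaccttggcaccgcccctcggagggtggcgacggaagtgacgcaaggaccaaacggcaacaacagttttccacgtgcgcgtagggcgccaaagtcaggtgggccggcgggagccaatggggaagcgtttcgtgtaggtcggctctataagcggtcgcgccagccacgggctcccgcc

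The libraries held 84427033 to 94613684 counts, and the chi-square per gene between any 2 of them was 8.91 to 69.4, well above sampling noise. Pthlh had 553 to 797 counts in the PTHrP libraries and 0 to 8 in the DsRed libraries. As CPM (counts scaled to library size) this was 6.50 to 8.37 with PTHrP and at most 0.0874 with DsRed. Markers fitted the labelled line: the CPM of 9 beta cell markers, mostly Ins2, summed to 48074 to 54491 with PTHrP, 49530 to 61556 with DsRed. All 9 had a negative log2 fold change, against 51.3% of all genes tested, and none passed. In 3 the groups were apart, all lower, beside 7.88% of all genes. Mafa ran from 804 to 1450 CPM, lowest in PTHrP replicate 2. The 7 acinar and duct markers summed to at most 3.19 CPM, with Ptf1a at 0 in all libraries, and the 8 stromal, endothelial and immune markers summed to 2.80 to 4.65 CPM with PTHrP, 4.60 to 5.85 CPM with DsRed. The part of these low markers in the results was not tested. Glucagon (Gcg), a hormone of alpha cells, was read at 135 to 175 CPM in these beta-type cells. PTHrP replicate 2 stood apart: the chi-square per gene was 55.9 to 69.4 in pairs with it and at most 36.7 in other pairs. It had a higher level than all other libraries for 23.4% of the genes tested, a share not computed for the other libraries.

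Levels below are CPM scaled by TMM factors, as mean ± SD over n = 3 libraries. Levels of different genes are compared per kilobase of exon unless stated otherwise. Per kilobase, Hspa5 stood far above its partners, at 572 ± 48.2 CPM with DsRed, 389 ± 13.0 CPM with PTHrP. Without correction for length, its mean log2 CPM was at the 99.9 percentile of the genes tested. Hspa5 alone took 0.222% to 0.261% of all counts in DsRed and 0.160% to 0.170% in PTHrP. Dnajb9 came next in DsRed at 79.4 ± 3.92 CPM per kilobase, ahead of Dnajb11 at 56.9 ± 3.51, Dnajc10 at 50.1 ± 4.11, Dnajc3 at 46.9 ± 5.40 and Hyou1 at 35.7 ± 5.11. Hspa13, Sil1 and Sec63 formed a lower tier at 16.2 ± 1.21, 15.8 ± 0.727 and 15.5 ± 0.961 CPM per kilobase, and Dnajc1 was lowest at 1.58 ± 0.152. In DsRed the ranges of Dnajb11 and Dnajc10, of Dnajc10 and Dnajc3, of Hspa13 and Sil1, and of Sil1 and Sec63 overlapped, and the other neighbours in the order were apart.

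**Figure D1:**
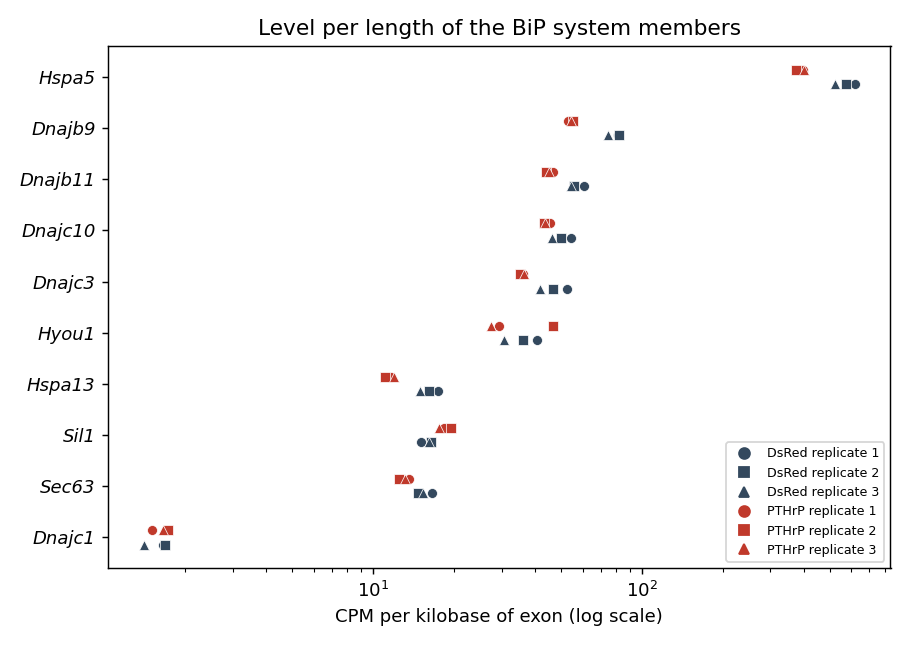
Each point is the CPM per kilobase of exon of a member in 1 library, on a log scale, ordered by the mean in DsRed (dark, 3 libraries; PTHrP in red, 3 libraries). Hspa5 lies between 375 and 619 CPM per kilobase, far right of all other genes, and Dnajc1 is lowest.

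The lower tier was ordered differently in PTHrP. Sil1 had 18.4 ± 0.902 CPM per kilobase there, above Sec63 at 13.0 ± 0.549 and Hspa13 at 11.5 ± 0.414, with no overlap between neighbours, so that Hspa13 went from place 7 to place 9 of the 10 and Sil1 from 8 to 7. Exon lengths are the merged exons of all annotated transcripts, 2549 bases for Dnajb9 and 11651 for Dnajc1. A gene with long exons that these cells do not use is placed too low by this measure.

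Fewer BiP transcripts were counted with PTHrP in every library. Hspa5 had 1672, 1584 and 1685 CPM in the PTHrP libraries and 2616, 2430 and 2209 CPM in the DsRed libraries. The lowest DsRed library was well above the highest PTHrP library, and the spread was 55 CPM (SD) with PTHrP, 204 CPM (SD) with DsRed. The PTHrP mean was 68.1% of the DsRed mean, a log2 fold change of -0.55 (SE 0.06, 95% interval -0.69 to -0.41, adjusted p = 0.0121 in the edgeR quasi-likelihood test over all genes).

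Hspa13 (also called Stch) is a small Hsp70-like ATPase of the ER that lacks the peptide-binding domain of BiP. It had 79.3, 75.7 and 81.3 CPM in PTHrP and 119, 111 and 102 CPM in DsRed. Again the groups were apart, and the libraries stood in the same order as for Hspa5 in DsRed. The log2 fold change was -0.49 (SE 0.07, 95% interval -0.64 to -0.34, edgeR adjusted p = 0.0398), or 71.3% of the DsRed level.

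Dnajb9 (ERdj4), a J protein that brings BiP to the stress sensor IRE1 and to misfolded chains bound for degradation, fell by about the same factor as BiP. It had 135, 141 and 139 CPM in PTHrP and 207, 209 and 191 CPM in DsRed. The 3 PTHrP libraries had an SD of 2.95 CPM, and all lay below the DsRed range. The log2 fold change was -0.55 (SE 0.06, 95% interval -0.68 to -0.42, edgeR adjusted p = 0.00645), and the PTHrP mean was 68.3% of the DsRed mean.

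The soluble J proteins Dnajb11 and Dnajc3 had lower values in each PTHrP library but did not pass. Dnajb11 (ERdj3), which binds unfolded clients and passes them to BiP, had 151, 142 and 146 CPM in PTHrP and 197, 180 and 176 CPM in DsRed. Its log2 fold change was -0.33 (95% interval -0.46 to -0.20, edgeR adjusted p = 0.14). Dnajc3 (p58IPK), a BiP partner that also restrains PERK and whose loss causes beta cell failure in mice, had 185, 181 and 187 CPM in PTHrP and 270, 239 and 215 CPM in DsRed. Its PTHrP libraries were nearly level, while the DsRed libraries ranged widely, and the log2 fold change was -0.39 (95% interval -0.55 to -0.22, edgeR adjusted p = 0.178).

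Dnajc10 (ERdj5), a J protein with thioredoxin domains that reduces disulfides of chains marked for degradation, did not pass. It had 228, 216 and 217 CPM in PTHrP and 272, 250 and 230 CPM in DsRed. PTHrP replicate 1 lay just under DsRed replicate 3, so the groups were apart by a narrow margin, and the log2 fold change was -0.19 (95% interval -0.33 to -0.04, edgeR adjusted p = 0.423).

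Neither of the membrane J proteins passed. Sec63 (ERdj2), which works beside the Sec61 channel and recruits BiP to draw chains into the lumen, had 119, 110 and 115 CPM in PTHrP and 145, 128 and 135 CPM in DsRed. These ranges were apart, with a log2 fold change of -0.25 (95% interval -0.39 to -0.11, edgeR adjusted p = 0.320). Dnajc1 (ERdj1), a ribosome-associated membrane J protein, had 17.5, 20.1 and 19.2 CPM in PTHrP and 19.2, 19.5 and 16.3 CPM in DsRed, which overlap. Its log2 fold change was 0.04 with a 95% interval of -0.18 to 0.26 (edgeR adjusted p = 0.929), so a change as large as that of BiP lies outside the interval. Exons of Dnajc1 overlap those of Mllt10 on the opposite strand over 749 bases (Mllt10 had 47.2 CPM with PTHrP, 49.0 CPM with DsRed), and without strand the reads of this stretch belong to either gene.

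Neither exchange factor passed. Sil1, which opens the nucleotide pocket of BiP to release ADP, was the only member with every PTHrP library above every DsRed library, at 63.0, 66.6 and 60.4 CPM against 51.5, 56.3 and 55.2 CPM. The log2 fold change of 0.22 (95% interval 0.07 to 0.37) had an edgeR adjusted p of 0.375.

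Hyou1 (GRP170), a large Hsp70-like protein that both releases ADP from BiP and holds unfolded chains, had 211, 338 and 198 CPM in PTHrP and 295, 260 and 221 CPM in DsRed. PTHrP replicate 2 was the highest of all 6 libraries and the other PTHrP libraries were the lowest. The log2 fold change was -0.05 with a wide 95% interval of -0.67 to 0.56 (edgeR adjusted p = 0.966), and it was -0.34 without PTHrP replicate 2 (adjusted p = 0.238, and 0.238 to 0.996 over the fits that left out 1 library).

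**Figure D2:**
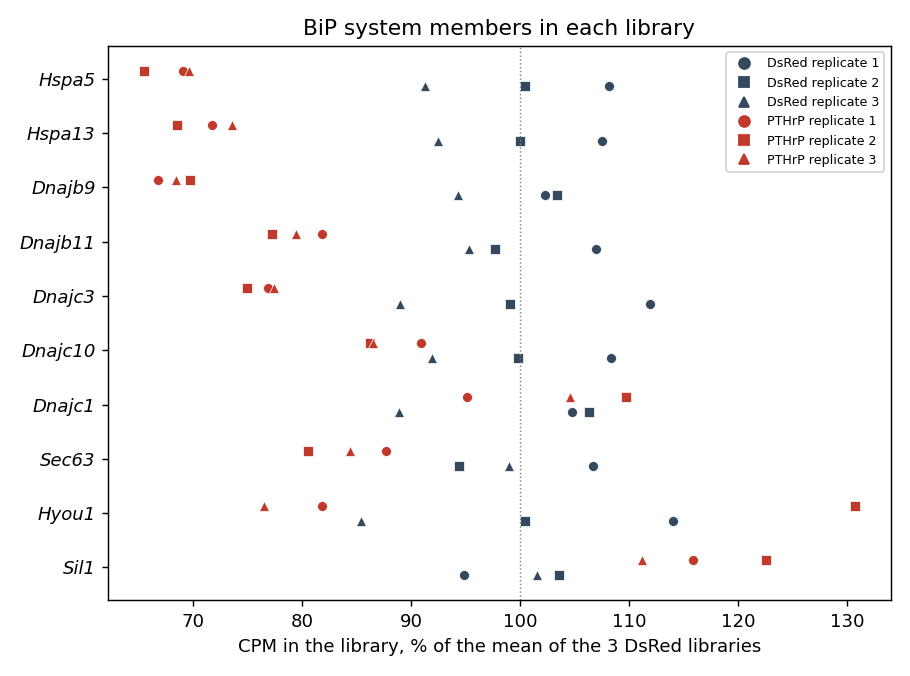
Each point is the CPM of a member in 1 library, as a percentage of the mean of the 3 DsRed libraries (dark; PTHrP in red; the marker shape gives the replicate). The PTHrP points of Hspa5, Hspa13 and Dnajb9 lie near 70%, those of Sil1 lie right of all DsRed points, and the PTHrP replicate 2 point of Hyou1 lies far right of the other 2.

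In sum 3 of the 10 members passed, all lower, where 0.0237% of all genes tested passed as lower, 0.0189% as higher and 0.0426% in either direction. In 7 of the 10 the PTHrP libraries all lay below the DsRed libraries, and in 1, Sil1, all above. For the genes tested these shares were 7.88% and 8.45%. Negative fold changes were found for 8 members and for 51.3% of all genes, and the median log2 fold change was -0.29 in the members and -0.01 over all genes. Because the members were proposed with this comparison known, these shares are set side by side and nothing is read from them.

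Which members passed changed with the libraries in the fit. No member passed when either DsRed replicate 1 or DsRed replicate 2 was left out, Hspa5 and Dnajb9 passed without PTHrP replicate 1 and without PTHrP replicate 3, and the 3 passed without DsRed replicate 3. Without PTHrP replicate 2, 5 passed, as Dnajb11 and Dnajc3 joined them. Over these 6 fits the fold change of Hspa5 ran from -0.62 to -0.50 with adjusted p from 0.000336 to 0.119. Dnajb9 ranged between -0.59 and -0.52 (adjusted p from 8.21e-05 to 0.0963). Hspa13 ranged between -0.54 and -0.44 (adjusted p from 0.00164 to 0.389). Dnajb11 lay between -0.36 and -0.28 (adjusted p from 0.0149 to 0.752), and Dnajc3 between -0.46 and -0.30 (adjusted p from 0.0339 to 0.820). In limma-voom Hspa13 missed the threshold (adjusted p = 0.060).

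**Figure D3:**
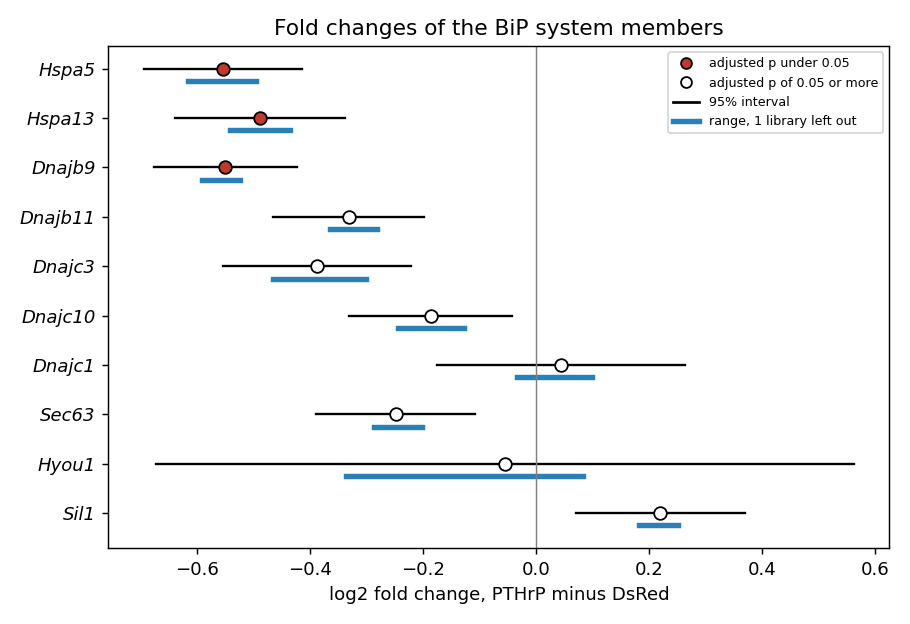
Points are log2 fold changes of PTHrP against DsRed (filled where the edgeR adjusted p was under 0.05), black lines their 95% intervals, and blue bars the range of the fold change when 1 of the 6 libraries was left out. The bars of Hspa5, Hspa13 and Dnajb9 stay left of -0.43, and those of Hyou1 and Dnajc1 cross 0.

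With BiP lower and some partners less so, the RNA of most partners made up more per BiP transcript. Hspa5 had a log2 fold change of -0.55 and the median over all genes was -0.01, so an unchanged gene also gains on Hspa5. A higher ratio is therefore not by itself a rise of the partner. The share of all genes with a higher ratio to Hspa5 was not computed. A ratio to Hspa5 within a library needs no scaling between libraries. The log2 ratio of Dnajb9 to Hspa5 was the same in both groups within its spread, -3.57 ± 0.0745 in PTHrP and -3.58 ± 0.0715 in DsRed. Hspa13 moved almost as closely with BiP, with a group difference of 0.07 in its log2 ratio. Larger differences were found for Dnajc3 (0.17), Dnajb11 (0.22), Sec63 (0.30), Dnajc10 (0.37), Dnajc1 (0.60) and Sil1 (0.77), and in each of these the PTHrP libraries all lay above the DsRed libraries. Hyou1 differed by 0.46, and by 0.20 without PTHrP replicate 2.

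**Figure D4:**
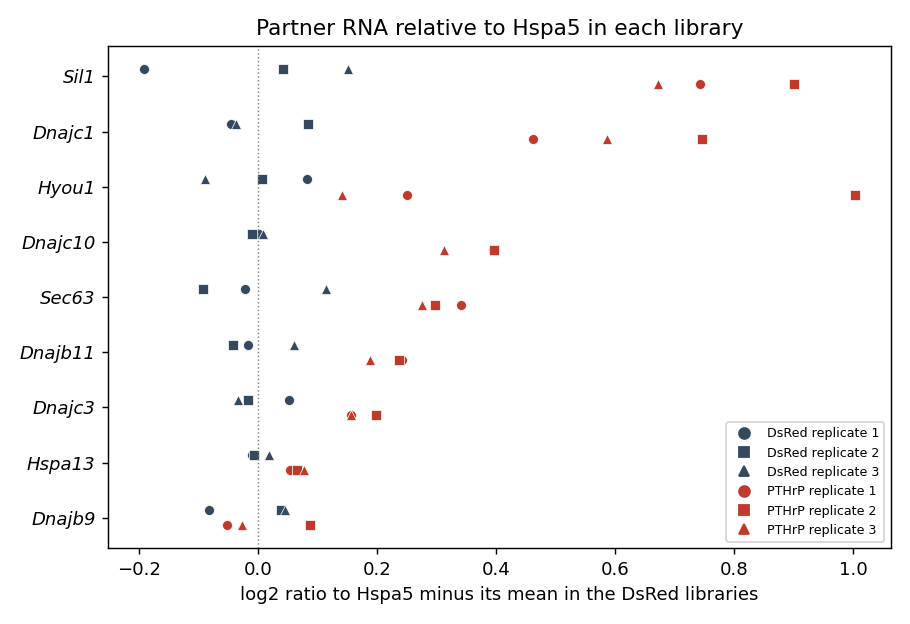
Each point is the log2 ratio of a partner's counts to those of Hspa5 in 1 library, minus the mean of that ratio in the 3 DsRed libraries (dark; PTHrP in red). The PTHrP points lie right of all DsRed points for every partner except Dnajb9, and the partner with the largest mean difference is Sil1. Hspa5 itself was lower in PTHrP, so an unchanged gene would also shift to the right. The share of all genes that do so was not computed.

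Added up per kilobase, the CPM per kilobase of the 6 J proteins came to 43.2, 43.6 and 44.7 per 100 of Hspa5 in the DsRed libraries and 49.6, 51.2 and 48.7 in the PTHrP libraries. The 2 exchange factors came to 9.01, 9.10 and 8.92 per 100 of Hspa5 in DsRed and 12.03, 17.65 and 11.27 in PTHrP, the middle value being the library with high Hyou1. Both ratios were higher in each PTHrP library, where Hspa5, the denominator, was lower. The summed level of all 10 genes was 2861 ± 13.5 CPM with PTHrP, 3875 ± 321 CPM with DsRed, and Hspa5 alone made up 76.1% of that difference. The other 9 together had 1214 ± 67.5 CPM with PTHrP, 1456 ± 117 CPM with DsRed.

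Over the 6 libraries Hspa13 followed Hspa5 almost exactly, with a Pearson r of 0.9994 on log2 CPM and an r of 0.99 over the deviations from the group means. Among 11776 genes whose log2 CPM averaged 1 or more, it ranked place 2 for likeness to Hspa5, Dnajb11 ranked 7 (r = 0.99), Dnajb9 26 (r = 0.98) and Dnajc3 31 (r = 0.98). Sec63 (r = 0.93) and Dnajc10 (r = 0.91) ranked 172 and 262, while r was 0.17 for Hyou1, -0.08 for Dnajc1 and -0.94 for Sil1. The 10 genes most like Hspa5 were Srsf1, Hspa13, Oplah, Creld2, Pag1, Adgb, Dnajb11, Emilin1, Calu and Ctdspl2, with r from 0.99 upward. Srsf1, a splicing factor, ranked first with 205, 197 and 206 CPM in PTHrP and 284, 267 and 248 CPM in DsRed (log2 fold change -0.39, edgeR adjusted p = 0.0638), and its exons overlap those of another gene over 98 bases. Creld2, an ER protein with disulfide isomerase activity, and Calu, a calcium-binding protein of the secretory pathway, act in the same compartment or pathway. Over the deviations from the group means r was 0.97 for Dnajc3, 0.93 for Dnajc10, 0.90 for Dnajb11, 0.62 for Dnajb9, 0.59 for Sec63, 0.50 for Dnajc1, 0.08 for Hyou1 and -0.69 for Sil1, so Dnajb9 and Sec63 followed Hspa5 less closely within the groups than across them. These correlations rest on 6 libraries that share the group difference and are a description.

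Proteins that bind or modify BiP gave a mixed picture. Of all genes tested, 0.0237% passed as lower and 0.0189% as higher. Of 10 in a list of such genes, 1 passed, lower, and none higher. This was Manf, a secreted ER protein that binds BiP, with 112, 120 and 119 CPM in PTHrP and 195, 176 and 162 CPM in DsRed (log2 fold change -0.60, SE 0.07, edgeR adjusted p = 0.0138), and 326 bases of its exons overlap those of other genes. Manf passed in 2 of the 6 fits that left out 1 library, without PTHrP replicate 2 and without DsRed replicate 3, and missed in the other 4 (adjusted p from 0.000324 to 0.119 over the 6). Hsp90b1, the ER Hsp90 that receives clients from BiP, had -0.25 (adjusted p = 0.228), and Sec61a1, the channel beside which Sec63 works, -0.32 (adjusted p = 0.295). The list's median was -0.14, with 6 negative and 4 positive fold changes, from -0.60 to 0.23. In 4 genes the PTHrP libraries all lay below the DsRed libraries, beside 7.88% of all genes tested. In 1, Sdf2, they all lay above, beside 8.45% (log2 fold change 0.18, adjusted p = 0.388). Ficd, the enzyme that attaches AMP to BiP, stood at 20.4 ± 0.917 CPM with PTHrP, 21.7 ± 3.21 CPM with DsRed (log2 fold change -0.09, adjusted p = 0.866).

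Among other genes of the same families, most of them outside the ER, none was past the threshold in edgeR as fitted above or in limma-voom. Hsph1 passed, lower, in DESeq2, and so did Hsph1 and Bag3 with no filter on low counts and Hsph1 and Dnaja1 without PTHrP replicate 2. Among 12 Hsp70 family genes of other compartments the median was -0.06, and the lowest p was that of Hsph1, a cytosolic exchange factor of the Hsp110 type (log2 fold change -0.41, adjusted p = 0.137). Hspa9, the mitochondrial Hsp70, had 893 CPM with PTHrP, 801 CPM with DsRed (0.16, adjusted p = 0.446), and Hspa8, the constitutive cytosolic one, 1179 and 1314 CPM (-0.16, adjusted p = 0.514). In 28 J-domain genes outside the ER the median was -0.01, with Dnaja1, a cytosolic partner of Hspa8, at -0.22 (adjusted p = 0.295), Dnajb6 at -0.12 and Dnajc5 at -0.10. In 7 further J proteins of the ER membrane it was 0.02, with Dnajc25 at -0.35 (adjusted p = 0.591), Dnajb12 at 0.12 and Dnajc16 at 0.11, and in 8 exchange factors outside the ER it was -0.02, with Bag3 at -0.60 (adjusted p = 0.376), Bag2 at -0.18 and Hspbp1 at 0.11. By unadjusted p under 0.05, 7 of these 55 genes were counted (6 lower, 1 higher), beside 3.98% of all genes lower and 4.92% higher.

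Factors that act on ER stress elements were measured too, 7 with a negative and 7 with a positive fold change. Among all genes tested, 0.0237% passed as lower. Of 14, 1 passed, lower: Xbp1, whose spliced form drives genes such as Dnajb9, had 339, 348 and 350 CPM in PTHrP and 473, 450 and 453 CPM in DsRed (log2 fold change -0.41, SE 0.05, edgeR adjusted p = 0.0140). Xbp1 too passed without PTHrP replicate 2 and without DsRed replicate 3 and missed in the other 4 such fits (adjusted p from 0.000365 to 0.150 over the 6). These counts do not tell spliced from unspliced Xbp1. Atf6, whose cleaved form binds the ERSE, had 168 ± 6.83 CPM with PTHrP, 160 ± 5.0 CPM with DsRed (0.07, adjusted p = 0.752). Creb3l2, a related membrane-bound factor, had -0.43 (adjusted p = 0.414), and Nfyc, a subunit of the CCAAT-binding factor NF-Y, 0.15 (adjusted p = 0.510).

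The promoters printed above were searched together with those of the other members in the RefSeq table, which held 7 of the 10 (not Hspa13, Hyou1 or Sil1). Each window had 250 bases before the start and 50 after it, and both strands were read. The ERSE letters were found once each in Hspa5, at positions -65 to -47, and in Dnajc3, at -105 to -87 (-1 is the base before the start). They were held by 0.119% of 32851 promoters and by 0.154% of the 16850 promoters of genes tested. Those 2 sites read as follows.
Hspa5 ERSE: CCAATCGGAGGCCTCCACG
Dnajc3 ERSE: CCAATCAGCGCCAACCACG

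Dnajb11 held the second form of the element (ERSE-II, which is ATTGG, any 1 base, CCACG) as ATTGGCCCACG, from base 8 to base 18 after the start, a motif found in 0.0365% of promoters. The UPRE core was matched in Hspa5 alone of the 7, and in 2.01% of promoters. A CCAAT box alone, which is part of the ERSE and, read on the other strand, of ERSE-II, was present in 5 of the 7 and in 37.4% of promoters, and a CCACG box in 6 of the 7 and in 32.8%. Over the promoters of genes tested the shares were 0.0534% for ERSE-II, 2.61% for the UPRE core, 37.5% for CCAAT and 43.3% for CCACG. Dnajc10 held neither a CCAAT nor a CCACG box. Dnajb9 held both, 1 CCAAT and 2 CCACG boxes, but not at the spacing of an ERSE. The members searched that held no ERSE, ERSE-II or UPRE core differed in log2 fold change. It was -0.55 for Dnajb9, -0.25 for Sec63, -0.19 for Dnajc10 and 0.04 for Dnajc1. Any part of the motifs in these values was not tested. A match to these letters is not a binding site, and a window without one says nothing of sites elsewhere.

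**Figure D5:**
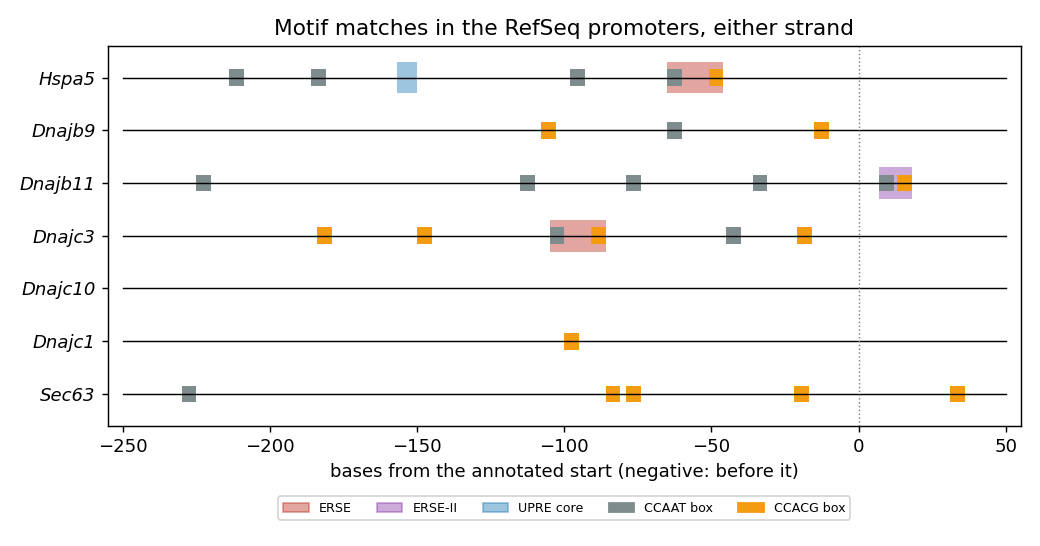
Blocks mark matches on either strand in the 300-base promoter windows of 7 members, by distance from the annotated start (dotted line): pale wide blocks for the ERSE, ERSE-II and UPRE core, narrow ones for single CCAAT and CCACG boxes. Hspa5 and Dnajc3 have an ERSE, Dnajb11 an ERSE-II just after the start, and Dnajc10 none of the motifs.

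The ERSE letters pick genes from sequence, but the motif was chosen with earlier results of these data known. This summary was added after the data were seen. Whether the ERSE has a part in the fold changes was not tested. Besides Hspa5 and Dnajc3, 22 tested genes had these letters in the promoter. Of these, 21 had a negative log2 fold change, against 51.3% of all genes tested, with a median of -0.20 against -0.01. None of the 22 passed in edgeR with all libraries and the usual filter, or in limma-voom. Creld2 and Hsp90b1 passed as lower in DESeq2 and without PTHrP replicate 2, these and Syvn1 with no filter on low counts, and Creld2 without DsRed replicate 3. An unadjusted edgeR p under 0.05 was found for 5, all lower, beside 3.98% of all genes tested lower and 4.92% higher. In 5 the groups did not overlap, all lower, beside 7.88% of all genes lower and 8.45% higher. Several are ER folding genes whose lower values in these libraries were already known, so the count is no independent support. They included Creld2 (-0.43, adjusted p = 0.0888), Hsp90b1 (-0.25), the ER ubiquitin ligase Syvn1 (-0.29, adjusted p = 0.348), the disulfide isomerase Pdia6 (-0.22, adjusted p = 0.600) and the lectin chaperones Calr (-0.15, adjusted p = 0.598) and Canx (-0.13, adjusted p = 0.591). In Pdia6, Calr and Canx the groups overlapped. Others of the 22 included Hnrnpa3 (-0.19, adjusted p = 0.446, groups apart), Derl3 (-0.22, adjusted p = 0.754) and Alg12 (-0.07, adjusted p = 0.889). The 1 of the 22 with a positive value was Adcy3, an adenylyl cyclase (0.02). Xlr3a, Xlr3b and Xlr3c are near-identical copies that may share reads, and 7 of the 22 did not reach 1 CPM in 3 libraries. In a separate fit to genes with at least 1 CPM in 3 libraries, 14 of the other 15 were negative, with a median of -0.18. Over the fits that left out 1 library, 19 to 22 of the 22 were negative, 20 of them without PTHrP replicate 2. For ERSE-II 7 of 8 genes other than Dnajb11 were negative, with a median of -0.06, and for the UPRE core 228 of 393 other than Hspa5, with a median of -0.03. Herpud1 was among those 7 ERSE-II genes, at -0.08 (adjusted p = 0.780).

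In positions of build GRCm38, all protein-coding, Hspa5 lies on chromosome 2 at 34771970 to 34777547, Dnajc10 on chromosome 2 at 80315466 to 80354043 and Dnajc1 on chromosome 2 at 18195654 to 18392830. Hspa13 and Dnajb11 lie on chromosome 16, at 75745431 to 75767104 and at 22857845 to 22879634. Dnajb9 spans 44205559 to 44210326 of chromosome 12, Dnajc3 lies on chromosome 14 at 118937976 to 118981697, Sec63 on chromosome 10 at 42761496 to 42832514 and Hyou1 on chromosome 9 at 44379490 to 44392369. Sil1 is on chromosome 18 at 35266396 to 35499780. Beside Dnajc1, exon overlaps with opposite-strand genes were 173 bases or fewer, for Sil1, Dnajb9 and Sec63, and none was annotated for Hspa5, Hspa13, Hyou1, Dnajb11, Dnajc3 or Dnajc10.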

How the data were processed

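RNA-seq counts per gene were used for 6 libraries, 3 per group, grouped by their titles. The authors deposited raw counts, made with bcl2fastq, STAR and featureCounts 2.0.3 (Subread) on GRCm38, per the submitters' processing notes. The annotation, strand setting and handling of multi-mapping reads: not given in the sources used here. Removing rows that repeated 168 gene identifiers with identical counts left 55487 genes of 55774 rows. filterByExpr kept 21141 genes, and the test was the two-sided edgeR 4.0.16 quasi-likelihood F-test with TMM factors, robust dispersions and a group term (R 4.3.3), with Benjamini-Hochberg adjustment over all genes and a threshold of 0.05. The SE is the fold change divided by the square root of F. Every adjusted p comes from that fit unless another tool is named. Nothing in the labels says that replicates came from separate cultures, so p-values reflect only how far these samples differ, possibly for technical reasons. Ratios to Hspa5 and log2 CPM carry a prior count of 2. Members, gene lists and motifs were chosen with earlier results of these data known, and the summary of the genes with an ERSE and the alternatives for them, Manf and Xbp1 were added after the data were seen. Genes named outside the members are those past the threshold and the lowest p-values of each list other than cell type markers (up to 3 per list), and the 10 genes most like Hspa5. Picked after their values were seen were Ficd, Atf6, Sdf2, the cell type markers named and the genes named among those with an ERSE or ERSE-II. Alternatives were other scalings and filters, DESeq2 1.42.0, limma-voom (limma 3.58.1), the replicate number as a block, and each library left out. Positions and exon lengths are from GENCODE M21, and promoters from RefSeq on GRCm38.p6, whose annotated starts can differ from the GENCODE gene bounds. Only the edgeR, DESeq2 and limma-voom fits were tried on simulated counts. Those varied less than these data (coefficient of variation 17.7%) and held no library set apart.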

Additional observations from a re-analysis of the deposited data

How the results depend on the processing

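The direction of 8 members, all but Hyou1 and Dnajc1, held in the 14 alternatives to the edgeR fit. Of all genes tested 9 passed, against 14 with library sizes alone, 220 with no filter on low counts and 136 in DESeq2. The members past the threshold numbered 3, and 5 both with no filter and in DESeq2, the added ones being Dnajb11 and Dnajc3. Leaving out 1 library gave 2 to 213 genes and 0 to 5 members, with 213 genes when PTHrP replicate 2 was left out, 17 for DsRed replicate 3, 14 for PTHrP replicate 3, 4 each for replicate 1 of either group and 2 for DsRed replicate 2. Hyou1 then ranged from -0.34 to 0.084 and Dnajc1 from -0.034 to 0.099, changing sign. The samples share only a number: deviations from the group means correlated at 0.02, -0.11 and 0.02 for the replicate numbers 1, 2 and 3, and not every library correlated best with its own number. In the fit with a replicate block 7 genes passed, including 2 members (Hspa5 and Dnajb9), and 4 of the 7 were among those 9, while Hspa13 (adjusted p = 0.133), Manf (0.0667) and Xbp1 (0.0865) missed. With library sizes alone 8 of the 10 genes most like Hspa5 were shared. A prior count of 0.5 moved no ratio to Hspa5 beyond the spread between replicates. Every member had 1493 counts or more in every library, where counting error is 2.59% of the value or less. The cause of the differences between settings was not tested.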
